A study of Arabidopsis thaliana with 4 samples.

Results

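Class III peroxidases are secreted plant haem enzymes, and 54 genes of this family in Arabidopsis thaliana are described here. They were taken by gene identifier out of 32833 genes in the count table, from a list chosen with earlier results of these data known. RNA was measured in whole 7 day old Col0 seedlings grown at 22 °C with 16 h of light and 8 h of dark. Seedlings of genotype cml39 -/-, mutant for the calmodulin-like calcium sensor CML39, were compared with wild type (wt) seedlings in 4 libraries, 2 per genotype. The labels do not name the mutant allele, and the seedlings of both groups share the Col0 background and the growth conditions. Nothing in the labels says that the 2 libraries of a group came from separately grown seedlings, so the p-values measure only the spread between these libraries, which may be technical.

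Class III peroxidases use hydrogen peroxide to oxidise phenolic compounds in the cell wall. The reaction couples monolignols into lignin and crosslinks wall polymers, which stiffens the wall, and in other cycles the same enzymes produce reactive oxygen that loosens it. In seedlings many members are best known from roots, where they act in root hairs, in the lignin of vessels and in the Casparian strip of the endodermis, while others act in the oxidative burst after contact with a pathogen.

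The libraries held 21981123 and 19821451 counts for cml39 1 and cml39 2, and 24101882 and 19331639 counts for wt 1 and wt 2. Levels are given in CPM, the read count scaled to the library size, and 3 counts correspond to 0.151 and 0.164 CPM in the cml39 libraries and 0.113 and 0.143 CPM in the wt libraries. CML39 itself (AT1G76640) went against the labels. It had 45 and 21 counts in the libraries labelled cml39 and 0 counts in both libraries labelled wt, so it was higher in cml39 by at least 27.4-fold against 3 counts over the wt group (edgeR adjusted p = 0.00218). When single libraries were left out the bound was between 12.1-fold (wt 1 left out) and 35.9-fold (cml39 2 left out). Every direction below is therefore that of the libraries labelled cml39 relative to the libraries labelled wt. Of all 19834 tested genes, 21.6% passed the test as lower in the libraries labelled cml39 and 19.3% as higher. Among marker genes of tissues, all 8 tested root hair markers and 9 of 12 root markers passed as lower, and none as higher. Without wt 1 these were 5 root hair and 8 root markers, and without wt 2 they were 4 and 8, and in both cases RHD6, RSL4 and EXPA18 lost their calls. The root markers not called were MYB36 (log2 change, cml39 over wt, -0.23), SCR (0.21) and NAC015 (-1.83). Summed levels were 4.13 and 3.50 CPM in cml39, against 36.9 and 28.2 CPM in wt, for the root hair markers. For the root markers they were 1083 and 1343 CPM in cml39, against 4691 and 4178 CPM in wt. Most of the root marker sum was PYK10, at 973 and 1210 CPM in cml39, against 4292.8 and 3748.5 CPM in wt. None of 9 shoot markers was called lower, 2 were called higher, CAB1 and RCA, and 7 were not called. The shoot markers summed to 77775 and 72660 CPM in cml39, against 55589 and 57281 CPM in wt. Most of that difference was CAB1, at 30020 and 25676 CPM in cml39, against 14270 and 16316 CPM in wt. The call of RCA was lost without cml39 2 (edgeR adjusted p = 0.0502) and with the replicate number as a block (0.0503), and CAB3 was called lower under upper quartile scaling (-0.39, adjusted p = 0.0265). No marker of these 3 lists was at 0 in any library. In whole seedlings, fewer cells of a type and less RNA per cell cannot be told apart.

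The promoters of 4 members are shown because their values carry the contrasts described below. The motif context of a pair of others is shown because they held the root hair element. PRX52 had the largest rise, AT5G39580 was among the most abundant members in cml39 and not in wt, and PRXCA and PRXCB are neighbours that moved in opposite directions. The 300 bases upstream of the RefSeq start of each gene (TAIR10.1) are given 5′ to 3′ on the strand of the gene. Capitals mark the core of the W-box, the site read by WRKY transcription factors, as TTGAC or, on the other strand, GTCAA.
PRX52, chr5:1580876-1581175, minus strand: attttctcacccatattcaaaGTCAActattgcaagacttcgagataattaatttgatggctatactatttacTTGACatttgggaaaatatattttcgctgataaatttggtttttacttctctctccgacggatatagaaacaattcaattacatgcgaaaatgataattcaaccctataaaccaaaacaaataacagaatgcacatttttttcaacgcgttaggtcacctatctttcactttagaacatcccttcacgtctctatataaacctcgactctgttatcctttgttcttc
AT5G39580, chr5:15849142-15849441, minus strand: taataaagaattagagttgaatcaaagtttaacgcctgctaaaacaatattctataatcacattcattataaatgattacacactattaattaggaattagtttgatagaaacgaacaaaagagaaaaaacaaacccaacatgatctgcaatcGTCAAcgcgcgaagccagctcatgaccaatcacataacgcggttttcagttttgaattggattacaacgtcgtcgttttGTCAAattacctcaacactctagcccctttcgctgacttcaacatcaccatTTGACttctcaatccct
PRXCA, chr3:18200287-18200586, plus strand: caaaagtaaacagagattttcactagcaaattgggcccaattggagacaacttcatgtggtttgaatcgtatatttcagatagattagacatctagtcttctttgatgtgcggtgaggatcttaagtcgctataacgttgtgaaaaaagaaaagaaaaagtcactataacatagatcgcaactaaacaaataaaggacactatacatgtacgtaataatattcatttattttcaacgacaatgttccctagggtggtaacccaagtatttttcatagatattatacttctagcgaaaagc
PRXCB, chr3:18207351-18207650, plus strand: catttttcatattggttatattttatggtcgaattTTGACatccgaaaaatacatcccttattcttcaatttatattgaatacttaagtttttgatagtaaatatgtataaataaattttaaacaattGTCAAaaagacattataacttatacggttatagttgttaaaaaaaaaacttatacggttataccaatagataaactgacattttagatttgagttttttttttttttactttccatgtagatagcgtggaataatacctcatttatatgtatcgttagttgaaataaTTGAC
The root hair element is a motif found upstream of genes of root hair cells. It is in capitals in the stretches below, from AT3G01190 and from RHS18, the members that held it.
AT3G01190, chr3:68883-68923, minus strand: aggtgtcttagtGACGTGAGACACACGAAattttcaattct
RHS18, chr5:7426206-7426245, plus strand: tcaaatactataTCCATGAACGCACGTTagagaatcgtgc

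Most class III peroxidases with enough reads were lower in the libraries labelled cml39, and a smaller group was higher. The 3 members most abundant per kilobase in cml39 rose, while PRXR1, the most abundant in wt, fell. Of these rises, those of PRX71 (AT5G64120) and AT4G37520 were not called in the authors' deposited table. Of the 54 genes, 44 had enough counts to be tested. By edgeR's quasi-likelihood test with an adjusted p of at most 0.05, 28 of the 44 fell (63.6%) and 11 rose (25%), and 5 were not called. Across all 19834 tested genes, 21.6% were called lower and 19.3% higher. By the call alone, the share of peroxidases called lower was above that background and the share called higher was near it. The list was chosen with earlier results of these data known, so its shares are given as a description. Without wt 1, 23 of the members were called lower and 8 higher, beside 2031 and 1868 of all genes, and without wt 2 the rises numbered 8 members and 2536 genes. With a change of at least 2-fold in addition, 27 of the 44 were lower and 7 of the 44 higher, against 14.1% and 6.57% of all tested genes. Both shares were then above those of all tested genes. Both cml39 libraries lay below both wt libraries for 31 of the 44 tested members and above both for 11, against 38% and 36% of all tested genes. Here the share below was larger than among all tested genes, and the share above was smaller. The median log2 change (cml39 over wt) was -1.49 for the 44 members, also with the 1 member that had no count in cml39 set at its bound, and -0.01 for all tested genes. It was -1.63 under upper quartile scaling, where the median of all genes itself moved by -0.148.

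Of the 10 members that were not tested, 4 had no count in any library (AT1G05240, AT1G05250, AT3G50990 and AT5G58400). These include a root hair peroxidase (AT1G05240) and PER36 (AT3G50990), which acts in the release of seed coat mucilage. AT1G05250 shares all of its 50-base words with AT1G05240, which in turn shares 59.4% of its own, so reads of AT1G05250 could not have been told from those of AT1G05240. The other 6 held 3 to 21 counts over the 4 libraries (AT1G49570, AT1G77100, AT4G08780, AT5G19880, AT5G19890 and RHS18).

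**Figure D1:**
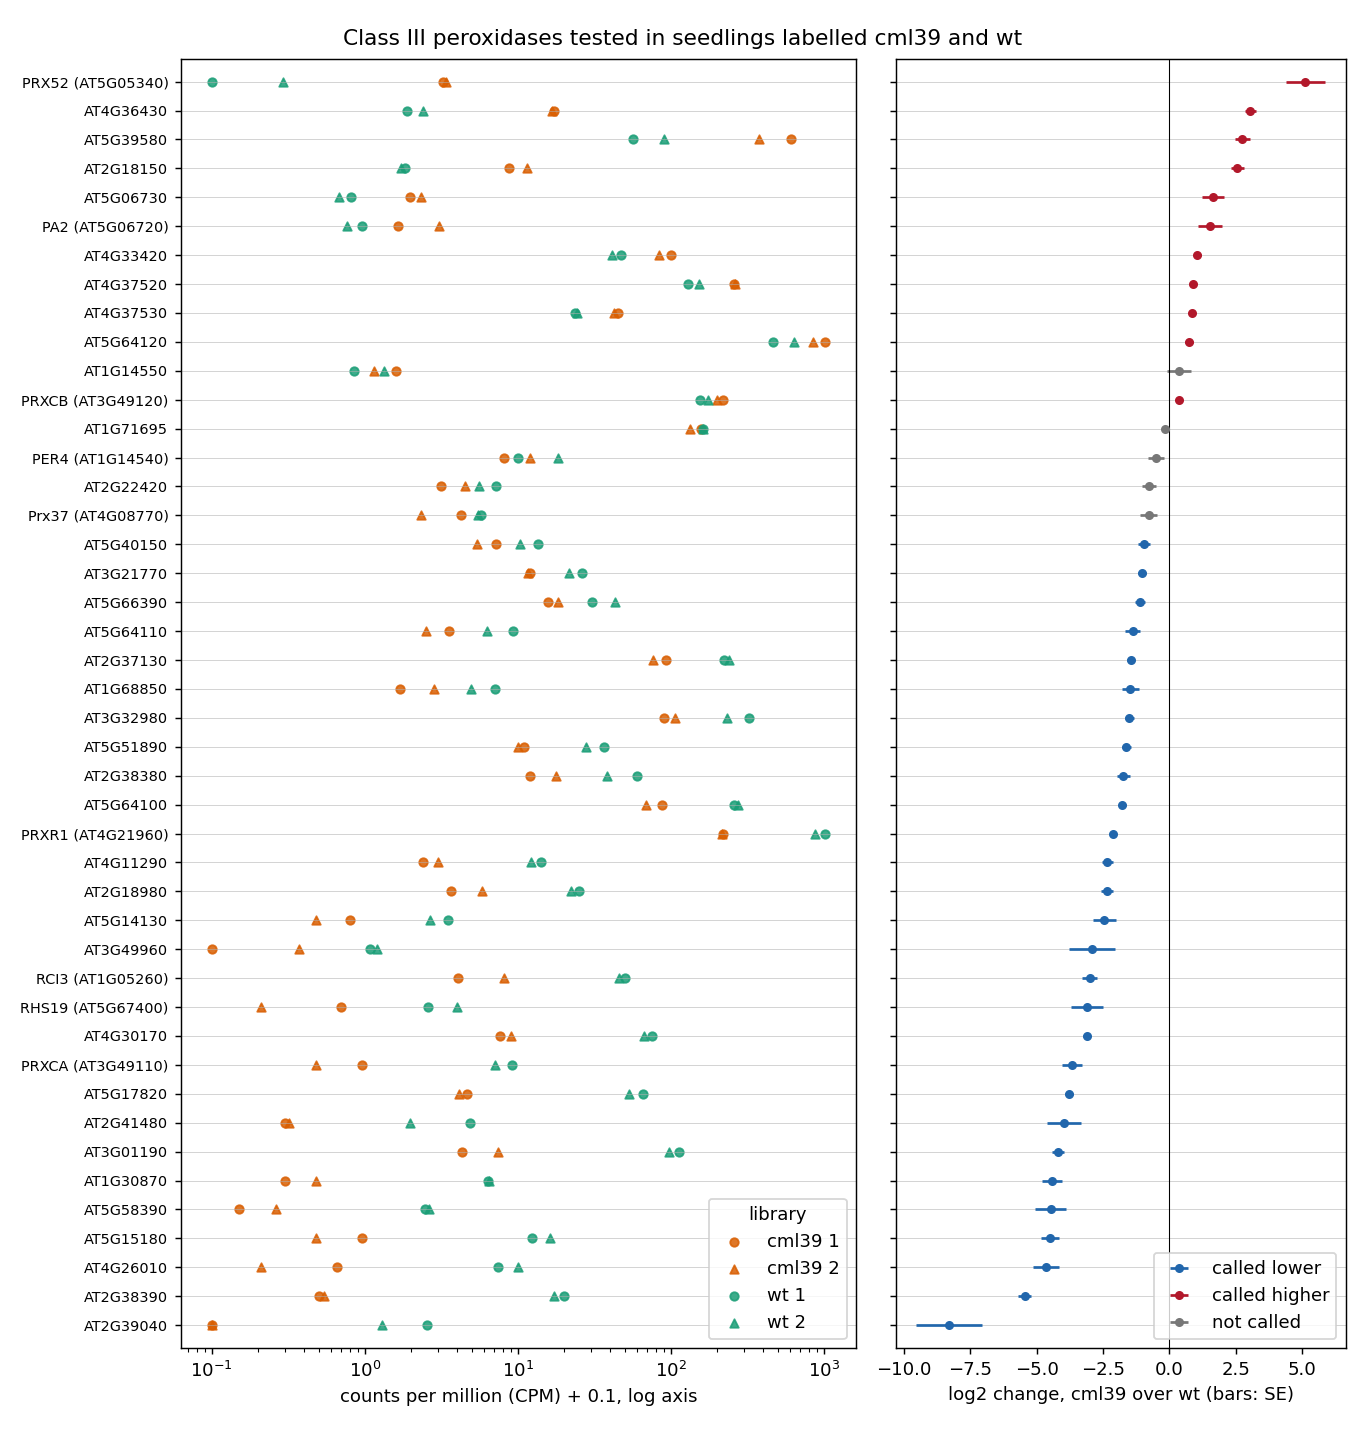
CPM of each tested class III peroxidase in the 2 cml39 and the 2 wt libraries, on a log axis offset by 0.1 CPM, with each gene's log2 change (cml39 over wt) and its SE in the right panel, coloured by call. The members run from PRX52 at 3.12 and 3.28 CPM in cml39 against 0 and 0.191 CPM in wt to AT2G39040, which had no count in cml39, so that its fitted change is no measured size.

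Of the 6 members known from root hairs 4 were tested, of which 3 fell and 1 rose. AT4G26010 and RHS19 (AT5G67400) are known to act together in root hair growth. AT4G26010 had 0.553 and 0.109 CPM in cml39, against 7.31 and 9.95 CPM in wt. Its log2 change was -4.64 ± 0.48 (SE, n = 2 per group, edgeR adjusted p = 0.000368), with the groups apart. RHS19 had 0.604 and 0.109 CPM in cml39, against 2.48 and 3.92 CPM in wt (log2 change -3.11 ± 0.61, edgeR adjusted p = 0.00563), again without overlap. The size of both rests on few counts in cml39. Without cml39 2 the log2 changes were -3.94 for AT4G26010 and -2.38 for RHS19. Without cml39 1, where 2 counts remained for each gene, wt exceeded cml39 by a ratio of 77.4 (exact binomial 95% interval 21.3 to 641) for AT4G26010 and 28.4 (7.73 to 237) for RHS19. Each of these genes overlaps another gene in the annotation (AT4G26020 and AT5G67410), and the strand setting of the counting is not given in the sources used here, so reads in the overlap are of uncertain origin.

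AT5G64100 and AT5G39580, both known from root hair growth at low temperature, went in opposite directions. AT5G64100 had 87.8 and 69.2 CPM in cml39, against 259 and 275 CPM in wt, a log2 change of -1.77 ± 0.14 (edgeR adjusted p = 0.000121). AT5G39580 had 613 and 378 CPM in cml39, against 56.2 and 90.5 CPM in wt, a log2 change of 2.76 ± 0.28 (edgeR adjusted p = 0.000360). For both genes the libraries of one group lay entirely on one side of the other. RHS18 (AT5G22410), also named for root hairs, had 1 and 0 counts in cml39 and 10 and 9 counts in wt, too few to be tested. The root hair and root markers given above were lower in the same libraries, and their part in the falls of these genes was not tested.

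Members linked to lignin, vessels and the Casparian strip were split, with 5 of 10 tested called lower, 3 higher and 2 not called. RCI3 (AT1G05260), AT4G11290 and PRX72 (AT5G66390) are known to act in the lignin of the Casparian strip. RCI3 had 3.97 and 8.04 CPM in cml39, against 49.9 and 45.7 CPM in wt (log2 change -3.00 ± 0.27, edgeR adjusted p = 0.000223). AT4G11290 had 2.31 and 2.90 CPM in cml39, against 14.1 and 12.1 CPM in wt (-2.33 ± 0.22, edgeR adjusted p = 0.000252). PRX72 had 15.7 and 18.2 CPM in cml39, against 30.5 and 42.9 CPM in wt (-1.11 ± 0.18, edgeR adjusted p = 0.00264). In each of the 3, both cml39 libraries lay below both wt libraries.

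PRX25 (AT2G41480), known with PRX71 and PRX72 from stem lignin, had 0.201 and 0.219 CPM in cml39, against 4.80 and 1.87 CPM in wt. The groups were apart (log2 change -3.97 ± 0.65, edgeR adjusted p = 0.00256), but the wt libraries differed from each other and the value was -3.11 without wt 1. AT5G51890, which acts in the lignification of vessels, had 10.8 and 9.90 CPM in cml39, against 36.3 and 27.6 CPM in wt (-1.62 ± 0.17, edgeR adjusted p = 0.000372). AT4G33420, known from the same process, went the other way, with 101 and 84.2 CPM in cml39 and 47.2 and 41.4 CPM in wt (1.06 ± 0.13, edgeR adjusted p = 0.000724). AT5G51890 and AT4G33420 overlap a neighbouring gene each in the annotation (AT5G51880 and AT4G33430), with the same uncertainty about the reads there.

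PRX52 (AT5G05340), which contributes to lignin in fibres, had 3.12 and 3.28 CPM in cml39, against 0 and 0.191 CPM in wt. These are 62 and 60 counts in cml39, against 0 and 4 counts in wt. Its log2 change of 5.14 ± 0.74 (edgeR adjusted p = 0.00148) was the largest rise in the family, and its size depends on the 4 counts in wt 2. It was 4.02 without wt 1, and without wt 2, which leaves wt with no count, PRX52 was at least 28.4-fold higher against 3 counts. PRX71 (AT5G64120) had 1013 and 850 CPM in cml39, against 469 and 642 CPM in wt (log2 change 0.75 ± 0.17, edgeR adjusted p = 0.00977). It was the most abundant member per kilobase of exon in cml39.

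The 2 lignin-linked members that were not called were AT2G22420 and PER4 (AT1G14540). AT2G22420 had 3.07 and 4.43 CPM in cml39, against 7.05 and 5.50 CPM in wt, with the groups apart (log2 change -0.75 ± 0.27, edgeR adjusted p = 0.0586). It was called lower by edgeR without cml39 2 (adjusted p = 0.00902), under upper quartile scaling (0.0335) and when all genes with a count were tested (0.0331). PER4 had 8.05 and 11.9 CPM in cml39, against 9.98 and 18.1 CPM in wt, and the groups overlapped (-0.49 ± 0.31, edgeR adjusted p = 0.242). Without cml39 2 it was called lower (adjusted p = 0.0257).

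Of the members known from the oxidative burst and stress, PRXCA (AT3G49110, PRX33) and PRXCB (AT3G49120, PRX34) both supply the burst against pathogens. PRXCA had 0.855 and 0.383 CPM in cml39, against 9.11 and 7.03 CPM in wt, a log2 change of -3.68 ± 0.37 (edgeR adjusted p = 0.000336) that was -4.38 without cml39 1. PRXCB had 220 and 201 CPM in cml39, against 155 and 175 CPM in wt. Its groups were apart, but the rise was small (log2 change 0.36 ± 0.11, edgeR adjusted p = 0.0368) and the call was lost without wt 1 (adjusted p = 0.236), without wt 2 (0.0570), without cml39 1 (0.119), with the replicate number as a block (0.0819) and under upper quartile scaling (0.163). AT2G37130 had 92.6 and 76.4 CPM in cml39, against 224 and 238 CPM in wt (-1.45 ± 0.12, edgeR adjusted p = 0.000178), with no overlap.

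AT5G17820, a target that the transcription factor UPB1 represses in the root tip, had 4.58 and 4.05 CPM in cml39, against 65.5 and 52.8 CPM in wt (log2 change -3.78 ± 0.17, edgeR adjusted p = 2.65e-05). AT4G11290, given above, is repressed by UPB1 as well. Both cml39 libraries were far below both wt libraries for AT5G17820. UPB1 itself had 2.87 and 4.98 CPM in cml39, against 2.03 and 2.20 CPM in wt, and was not called (0.89 ± 0.34, edgeR adjusted p = 0.0742). It was called higher without cml39 1 (adjusted p = 0.00699) and with all genes that had a count (0.0469). Prx37 (AT4G08770) had 4.13 and 2.24 CPM in cml39, against 5.63 and 5.36 CPM in wt, and was not called (-0.78 ± 0.31, edgeR adjusted p = 0.0818). It was called lower without cml39 1 (adjusted p = 0.00392), under upper quartile scaling (0.0477) and with all genes that had a count (0.0453). Prx37 shares 7.78% of its 50-base words with its neighbour AT4G08780, so part of its reads are of uncertain origin.

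Among the 31 members with no role assigned, 25 were tested, of which 17 fell, 6 rose and 2 were not called. AT2G39040 had 0 counts in both cml39 libraries, against 65 and 25 counts in wt, at least 24.1-fold lower in cml39 with 3 counts over the group as the floor (edgeR adjusted p = 0.00254). That bound was 11.5-fold without cml39 1, 12.5-fold without cml39 2, 15.2-fold without wt 1 and 31.0-fold without wt 2. AT2G38390 had 0.402 and 0.438 CPM in cml39, against 19.8 and 17.2 CPM in wt (log2 change -5.45 ± 0.25, edgeR adjusted p = 3.06e-05). Both were near or at 0 in cml39 and clearly read in wt.

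AT5G15180 had 0.855 and 0.383 CPM in cml39, against 12.2 and 16.2 CPM in wt (log2 change -4.49 ± 0.34, edgeR adjusted p = 0.000122), and the value was -5.19 without cml39 1. AT5G58390 had 1 and 3 counts in cml39, against 63 and 53 counts in wt (log2 change -4.47 ± 0.58, edgeR adjusted p = 0.000976). Its size is loose, since wt exceeded cml39 by a ratio of 14.9 (exact binomial 95% interval 4.96 to 73.1) without cml39 1 and of 48.5 (8.53 to 1931) without cml39 2. AT1G30870 had 0.201 and 0.383 CPM in cml39, against 6.30 and 6.36 CPM in wt (-4.43 ± 0.38, edgeR adjusted p = 0.000177). AT3G01190, whose upstream root hair element is shown above, had 4.23 and 7.33 CPM in cml39, against 114 and 96.7 CPM in wt (-4.19 ± 0.23, edgeR adjusted p = 4.96e-05). For these 4 genes no cml39 library came near a wt library. AT1G30870 overlaps AT1G30880, so reads in the overlap are of uncertain origin.

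PRXR1 (AT4G21960) lies on chromosome 4 from 11646109 to 11648644 on the minus strand and has 4 exons. It was the most abundant member per kilobase of exon in wt. PRXR1 had 219 and 217 CPM in cml39, against 1016 and 876 CPM in wt (log2 change -2.12 ± 0.12, edgeR adjusted p = 4.86e-05), with replicates close to each other in both groups. The other members of this group that fell had log2 changes between -3.11 (AT4G30170) and -0.94 (AT5G40150). Without wt 1 the calls were lost for AT5G14130 (adjusted p = 0.0532), AT1G68850 (0.113), AT5G64110 (0.0913) and AT5G40150 (0.124). That of AT3G49960 was lost without wt 1 (0.145), without wt 2 (0.142) and without cml39 1 (0.0663), and rested on 0 and 5 counts in cml39, against 26 and 23 counts in wt. Without cml39 2, which leaves no count in cml39, AT3G49960 was at least 6.82-fold lower.

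The rises among members with no role assigned were led by AT4G36430. It had 17.2 and 16.7 CPM in cml39, against 1.80 and 2.30 CPM in wt (log2 change 3.06 ± 0.20, edgeR adjusted p = 8.52e-05). AT2G18150 had 8.65 and 11.4 CPM in cml39, against 1.73 and 1.63 CPM in wt (2.57 ± 0.25, edgeR adjusted p = 0.000293). AT2G18150 shares 6.42% of its 50-base words with another gene, AT2G18140, which had no counts. The cml39 libraries lay far above the wt libraries for both.

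AT5G06730 had 1.86 and 2.24 CPM in cml39, against 0.713 and 0.574 CPM in wt (log2 change 1.65 ± 0.41, edgeR adjusted p = 0.0153). PA2 (AT5G06720, PRX53) had 1.56 and 2.95 CPM in cml39, against 0.863 and 0.670 CPM in wt (1.54 ± 0.46, edgeR adjusted p = 0.0312). The groups were apart for both, at low levels, and the calls depended on single libraries. The call of AT5G06730 was lost without wt 1 (adjusted p = 0.0957) and without wt 2 (0.117). That of PA2 was lost without wt 1 (0.124), without wt 2 (0.165), without cml39 2 (0.155), with the replicate number as a block (0.0640) and by DESeq2 (0.0600). AT4G37520 had 259 and 261 CPM in cml39, against 129 and 152 CPM in wt (0.89 ± 0.12, edgeR adjusted p = 0.000956). AT4G37530, next to it, had 44.8 and 42.6 CPM in cml39, against 23.5 and 24.4 CPM in wt (0.87 ± 0.11, edgeR adjusted p = 0.000910). These 2 neighbours share 6.22% and 6.15% of their 50-base words. The last tested member of the group, AT1G14550, and AT1G71695 were not called, at log2 changes of 0.37 ± 0.46 (edgeR adjusted p = 0.554) and -0.16 ± 0.11 (0.301).

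Summed over the family, levels were lower in both cml39 libraries than in either wt library, and other members took up most of the sum. All 54 members together had 3039 and 2585 CPM in cml39, against 3490 and 3466 CPM in wt. The 28 members called lower held 19.2% and 22.3% of this sum in cml39, against 69.4% and 61.8% in wt. The 11 called higher held 75.1% and 71.7% in cml39, against 25.3% and 32.6% in wt. These shares follow from the calls and are given as a description. The largest share in cml39 was that of PRX71, at 33.3% and 32.9% in cml39 and 13.4% and 18.5% in wt. PRXR1 held 7.20% and 8.38% in cml39 and 29.1% and 25.3% in wt. AT5G39580 made up 20.2% and 14.6% of the family in cml39 and 1.61% and 2.61% in wt.

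**Figure D2:**
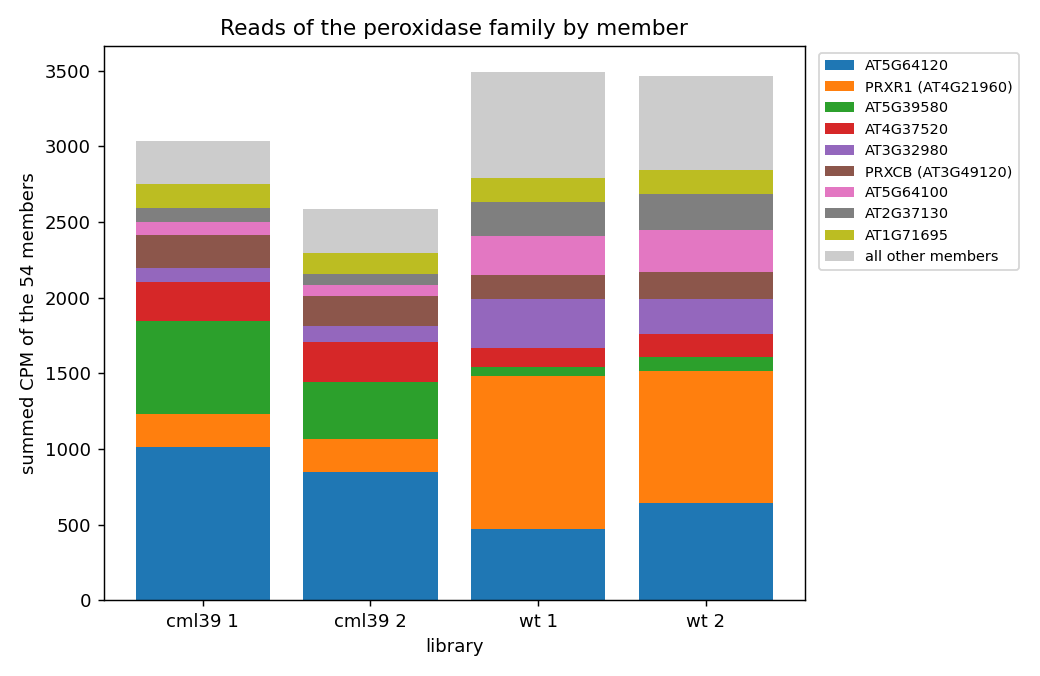
Summed CPM of the 54 class III peroxidases in each cml39 and each wt library, as stacked bars with 1 colour for each of the most abundant members and grey for all others. Of the bar, PRX71 (AT5G64120) takes 33.3% and 32.9% in cml39 and 13.4% and 18.5% in wt, while PRXR1 takes 7.20% and 8.38% in cml39 and 29.1% and 25.3% in wt.

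Per kilobase of exon, mean levels put PRX71 first in cml39 (694 CPM per kb, against 414 in wt), followed by AT5G39580 (383 in cml39, against 56.7 in wt) and AT4G37520 (188 in cml39, against 102 in wt). In wt the order was led by PRXR1 (119 CPM per kb in cml39 and 517 in wt), PRX71 and AT5G64100 (54.6 in cml39 and 186 in wt). AT3G01190 was at rank 21 in cml39 and rank 9 in wt, and AT5G39580 at rank 2 in cml39 and rank 11 in wt. AT1G71695 kept rank 6 in both, with 98.1 CPM per kb in cml39 and 110 in wt.

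Several members stand beside one another on a chromosome, and the neighbours did not always move together. Of 12 pairs of neighbours (at most 10000 bases apart with at most 1 gene between), 7 had both members tested. In 5 of these both members had the same call, and in 2 one fell and the other rose. Among the 5, PER4 and AT1G14550 were both not called, with log2 changes of -0.49 and 0.37. In the 2 opposite pairs, the calls of PRXCB and AT5G64110 were lost in alternatives given above. PRXCA (chromosome 3, 18200587 to 18203265, plus strand) and PRXCB (18207651 to 18210333, plus strand) are 4385 bases apart and differed by -4.03 in log2 change. They share 6.53% and 6.72% of their 50-base words, so a few reads could have gone to either gene. AT5G64110 and PRX71 are 3189 bases apart and differed by -2.13. AT5G64110 had 3.47 and 2.41 CPM in cml39, against 9.15 and 6.17 CPM in wt (log2 change -1.38 ± 0.29, edgeR adjusted p = 0.00803). AT2G38380 and AT2G38390, 897 bases apart, both fell but differed by 3.72 in log2 change, at -1.73 ± 0.26 and -5.45 ± 0.25. AT4G37520 and AT4G37530, PA2 and AT5G06730, and AT5G64100 and AT5G64110 each had close values. The differences between neighbours were not tested themselves.

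**Figure D3:**
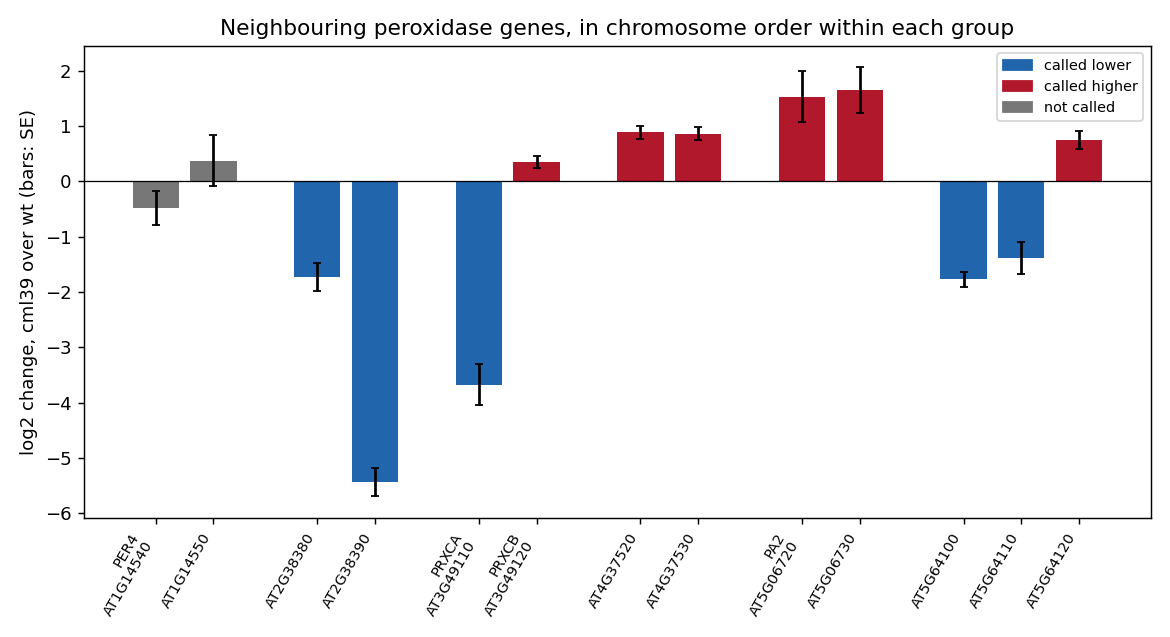
Bars of the log2 change (cml39 over wt), with the SE as error bars, for the members of the 7 neighbouring pairs in which both were tested, in chromosome order. PRXCA at -3.68 and PRXCB at 0.36, and AT5G64110 at -1.38 and AT5G64120 at 0.75, lie on opposite sides of 0.

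Motifs in the 300 bases upstream of the start were counted on both strands, beside 27443 promoters of protein-coding genes. The W-box core TTGAC was in 28 of 54 members (51.9%) and in 50.4% of all promoters. It was in 12 of the 28 members that fell (42.9%) and in 8 of the 11 that rose (72.7%). PRX52 held 2 copies and AT5G39580 and PRXCB 3 each, while the window of PRXCA held none. Other members went against this contrast. AT4G26010 and PRX72, which fell, also held 3 copies each, and AT4G33420, AT4G37520 and AT4G37530, which rose, held none. These shares were not tested. The G-box CACGTG was in no member and in 7.09% of all promoters. Of the AC elements of lignin genes, ACCTACC was in no member (1.33% of all) and ACCAACC in 2 members (3.18% of all). The heat element GAANNTTC was in 3 members and in 11.5% of all promoters. The root hair element, searched as a pattern that allows several bases at some positions, was in 2 members, AT3G01190 and RHS18, and in 0.915% of all promoters. The match in AT3G01190 reads on the other strand. Over the 54 windows no match overlapped a match to another of these motifs, and no match is shown here to be a working site.

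Other genes that make, use or supply the substrates of peroxidases were read from lists chosen with earlier results of these data known. Across all tested genes, 21.6% were called lower and 19.3% higher, the shares to set beside the counts of each list. NADPH oxidases produce the superoxide from which apoplastic hydrogen peroxide forms, and of 8 tested 6 fell and 1 rose (median log2 change -1.64). Without wt 1 these were 4 and 0, and without wt 2 they were 3 and 0. RHD2, the root hair oxidase, had 0.0503 and 0.492 CPM in cml39, against 9.38 and 7.13 CPM in wt (-4.94 ± 0.54, edgeR adjusted p = 0.000466). Its value was -4.05 without cml39 1, and without cml39 2, where 1 count remained, wt exceeded cml39 by a ratio of 167 (exact binomial 95% interval 29.8 to 6601). AT4G25090 had a log2 change of -2.95 ± 0.26 (edgeR adjusted p = 0.000202). RBOHB was not called (-1.43, edgeR adjusted p = 0.0529), but was called lower by DESeq2 (adjusted p = 0.0132) and by limma-voom (0.0231). RBOHD, the oxidase of the pathogen burst, was the one that rose, and it is named after its values were seen. It had 62.5 and 40.7 CPM in cml39, against 32.9 and 30.4 CPM in wt (0.71 ± 0.19, edgeR adjusted p = 0.0225). That call was lost without wt 1 (adjusted p = 0.0765), without wt 2 (0.101) and under upper quartile scaling (0.0526).

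Enzymes that make monolignols, the phenolic substrates of lignin, had 10 of 15 called lower and 2 higher (median -0.58), which were 7 and 1 without wt 1 and 9 and 1 without wt 2. PAL4, a phenylalanine ammonia-lyase, had 6.99 and 7.28 CPM in cml39, against 26.1 and 26.2 CPM in wt (-1.87 ± 0.14, edgeR adjusted p = 0.000114). CCR1, a reductase of the same pathway, rose to 174 and 179 CPM in cml39, against 99.6 and 99.0 CPM in wt (0.83 ± 0.10, edgeR adjusted p = 0.000619). The 3 lignin laccases, which oxidise monolignols with oxygen, all fell. Their log2 changes were -2.90 ± 0.19 for LAC11, -2.22 ± 0.16 for IRX12 and -2.01 ± 0.26 for LAC17 (edgeR adjusted p = 7.92e-05, 9.81e-05 and 0.000894).

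Of 9 genes listed for the Casparian strip of the endodermis, 8 fell and none rose (median -2.56). For CASP1 to CASP5 the wt libraries differed, with wt 2 well above wt 1. CASP1 had 16.3 and 36.7 CPM in wt, and its log2 change of -2.56 was -1.86 without wt 2. That of CASP4 was -2.80, and -1.79 without wt 2, and its call was lost by limma-voom (adjusted p = 0.0521). AT5G44550 had 2.77 and 2.68 CPM in cml39, against 25.8 and 21.3 CPM in wt (-3.11 ± 0.19, edgeR adjusted p = 6.05e-05). The 1 that was not called was MYB36. Catalases and cytosolic ascorbate peroxidases, which remove hydrogen peroxide inside the cell, had 1 of 4 tested called lower and 2 higher (median 0.42). CAT1 had 148 and 127 CPM in cml39, against 63.3 and 72.0 CPM in wt (1.03 ± 0.12, edgeR adjusted p = 0.000674), and CAT2 had a log2 change of 0.86 ± 0.12 (0.00140). CAT3 had a log2 change of -0.36 ± 0.12 (edgeR adjusted p = 0.0426), a call lost without wt 1 (0.0756), without wt 2 (0.0974), without cml39 2 (0.260) and with the replicate number as a block (0.104). Among 19 further class III peroxidases outside the 54, 8 were tested, of which 5 fell and 1 rose, and without wt 1 these were 4 and 0. PER64, another Casparian strip peroxidase, had 3.52 and 4.98 CPM in cml39, against 13.1 and 27.3 CPM in wt (-2.24 ± 0.36, edgeR adjusted p = 0.00246), and the value was -1.63 without wt 2. The root markers above were lower in the same libraries, and their part in the falls of these lists was not tested. The lists share genes. CASP1, CASP2 and MYB36 are in both the Casparian strip and the root marker lists. RHD2 is in both the NADPH oxidase and the root hair marker lists.

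**Figure D4:**
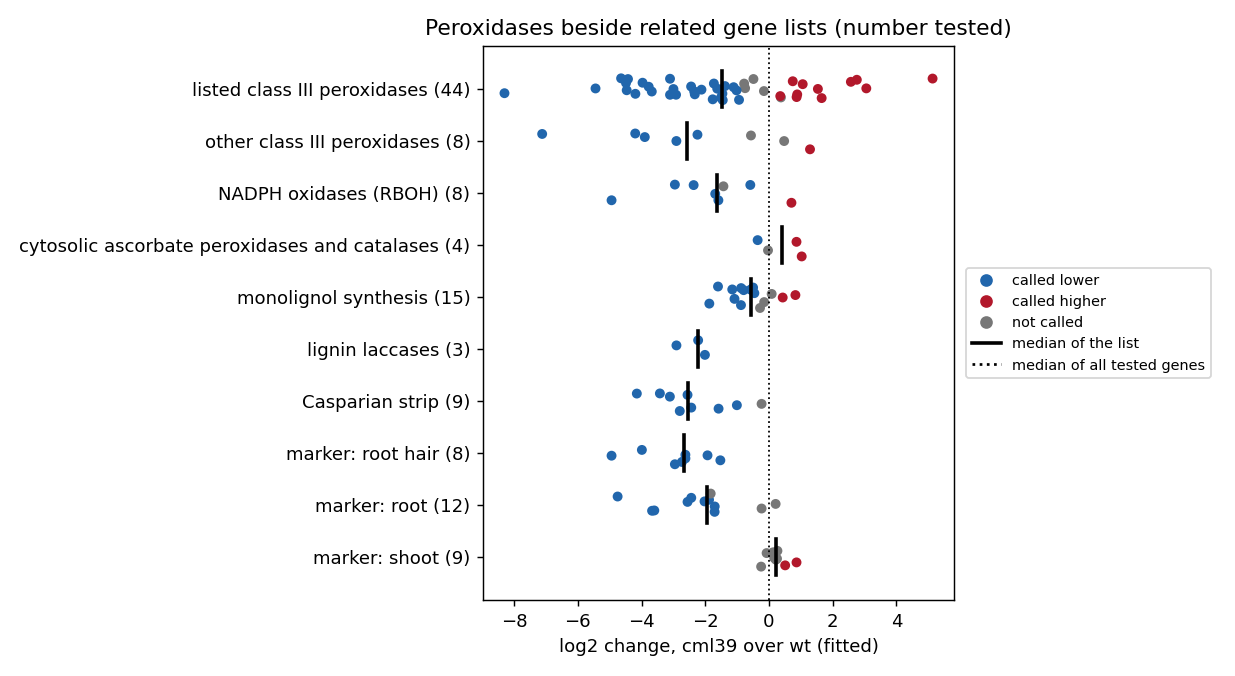
Log2 change (cml39 over wt) of every tested gene of the 54 class III peroxidases and of the related and marker lists, with the median of each list. There is 1 point per gene in each list, and genes in more than 1 list, such as CASP1 and RHD2, appear in each. The median is -1.49 for the 44 tested peroxidases, -1.64 for NADPH oxidases, -2.22 for laccases, -2.68 for root hair markers, -1.95 for root markers and 0.22 for shoot markers.

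In the authors' deposited table, made with DESeq2, 46 of the members have an adjusted p, of which 20 are called lower and 6 higher, against 8.76% and 7.23% of all genes with an adjusted p there. All 20 members called lower and all 6 called higher in the authors' deposited table had the same call by edgeR here. The 8 further falls and 5 further rises called by edgeR were not called in the authors' deposited table. For PRX52 the authors' deposited table gives a log2 change of 2.24 ± 0.61 (adjusted p = 0.00331), by another estimator. AT3G50990, with no count in any library here, has a mean normalized count of 0.354 there. That fit therefore did not rest on the counts tested here alone, and may include libraries not analysed here. For PRXCB the authors' deposited table gives 0.36 (adjusted p = 0.181) and for PRX71 0.70 (adjusted p = 0.141). It gives 0.79 for AT4G37520 (adjusted p = 0.190).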

How the data were processed

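RNA of whole seedlings was read with a stranded mRNA kit, per the labels' protocols. The submitters' processing notes name CASAVA 1.8, FastQC, STAR 2.5.2b, DESeq2 1.14.1 and the build TAIR10, while the annotation and strand setting of the counting are not given in the sources used here. The authors deposited raw counts per gene and a comparison table. In that deposited table the signal column is a mean normalized count over the libraries of the authors' fit, the fold change and its error are on the log2 scale, the score is the Wald statistic, and each p-value, raw or adjusted, is that of the authors.

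The counts were tested with edgeR 4.0.16 (R 4.3.3): filterByExpr, TMM scaling (factors 0.905 and 0.923 for cml39, 1.11 and 1.08 for wt), the quasi-likelihood F test, two-sided, and Benjamini-Hochberg adjustment over all 19834 tested genes at 0.05. The standard error is the absolute log2 change over the square root of F. The biological coefficient of variation was 0.129. Where a group had 0 counts the fold is against 3 counts over that group, and intervals and floors cover counting error only. The steps were tested on simulated data of 19834 genes, with 100 genes changed by 1 in log2 and 100 by 2. With dispersion taken gene by gene, 61 and 91 of these were recovered, beside 29 false calls. With dispersion following the mean, 62 and 93 were recovered, beside 2 false calls. Far fewer genes changed there than were called in these data, so the simulation does not give the error rate here. DESeq2 1.42.0, limma-voom (limma 3.58.1), other scalings and filters, a block for the replicate number, a robust fit and leaving out each library were alternatives.

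Names and positions come from RefSeq TAIR10.1, whose identifiers matched 32548 genes and not 285. Shared words are 50-base runs of the exons found in another gene. Members with a known role, the 8 largest rises and falls, and neighbours with opposite calls were given with full values. The peroxidases and the lists were chosen with earlier results of these data known.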

Additional observations from a re-analysis of the deposited data

How the results depend on the processing

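Over the alternatives the peroxidases called lower numbered 23 to 30 and those called higher 8 to 11, and the median log2 change lay between -1.73 and -1.35, never reversed. The same call was made in every alternative for 23 of the 28 that fell and 8 of the 11 that rose. Leaving out 1 library in turn gave 2031 to 4552 genes called lower and 1868 to 4105 called higher among all genes, against 4285 and 3822. The lowest numbers came without wt 1, with 23 peroxidases called lower and 8 higher, and without wt 2 there were 2536 genes called higher. Under upper quartile scaling 66.6% of all calls were lower, against 52.9%, and the median of all genes moved by -0.148. With the replicate number as a block, 28 peroxidases were lower and 9 higher, with 3602 and 3142 among all genes. The numbers only name libraries here, since the differences between replicates 1 and 2 correlated at -0.108 between the groups. With crossed numbers as the block, added after seeing the data, 29 peroxidases and 4463 genes were lower and 11 and 4233 higher. Depth limits the members with few counts, of which 10 were not tested and several hold under 6 counts in a group.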
